A study of Mus musculus with 16 samples.

Results

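The GDNF family comprises 4 secreted ligands, GDNF, neurturin, artemin and persephin (genes Gdnf, Nrtn, Artn and Pspn), 4 GFRalpha co-receptors (Gfra1, Gfra2, Gfra3 and Gfra4) and the receptor tyrosine kinase Ret. These 9 genes were taken by their gene names on the array, and all 9 were among the 36711 genes measured in the colon of the 16 pups. They were read by 14 of the 56366 probes tested, and each of these 14 probes passed the filter on dim probes.

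In this family a ligand binds its preferred co-receptor at the cell surface, GDNF with GFRalpha1, neurturin with GFRalpha2, artemin with GFRalpha3 and persephin with GFRalpha4, and the pair then activates Ret. In the gut, GDNF from the muscle and mesenchyme guides Ret-positive neural crest cells into the bowel wall, and loss of Ret signalling leaves the distal bowel without neurons. Neurturin maintains enteric nerve fibres, artemin steers sympathetic and sensory fibres, and the ligands also act on group 3 innate lymphoid cells that carry Ret.

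Colon RNA of RjOrl:SWISS mice kept free of specific pathogens (SPF), an outbred stock, was hybridised at weaning on 1-colour Agilent arrays, 1 array per pup, to ask how the mode of delivery relates to gene expression. The 8 CSD pups (C-section delivery) were taken by hysterectomy late in gestation and raised by foster mothers that had themselves delivered vaginally. The 8 VD pups (vaginal delivery) were also raised by other mothers, since litters were exchanged among them. The CSD pups came from 2 biological mothers, with 2 females and 2 males from mother 3 and the same from mother 4, and the VD pups came from mother 5 (2 females and 3 males) and mother 6 (3 males). Delivery mode therefore varied only between 4 litters, and beyond the 2 litters of each mode it cannot be told apart from other differences between outbred litters. Each of the 2 slides held 4 CSD and 4 VD pups. Leaving out control spots, each CSD array had 61.6% to 64.5% (median 63.8%) of its spots well above background, and each VD array 58.7% to 64.9% (median 64.3%). The labels name the tissue as intestine and the extraction as colon, and all 11 colon epithelial markers examined were well above background on all 16 arrays, while of 5 small intestinal genes Lct, Apoa4 and Sis were not well above background on any, Alpi was on 7 and Fabp2 on all 16.

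Gdnf was read by 2 probes, and they are shown because the result for Gdnf rests on probe 2 alone. Both belong to NM_010275 and lie on the plus strand of chromosome 15 in mm9, probe 1 at chr15:7784398-7784457 and probe 2 at chr15:7787474-7787533, with 3016 bases between them. Artn was read by a single probe of NM_001284192 on the minus strand, at chr4:117598825-117598884. No annotation of mm9 was used here, so that exons and UTRs are not given. The whole of Gdnf probe 1 and the first 30 bases of the other probes read as follows, 5′ to 3′, each probe being 60 bases long.
Gdnf probe 1: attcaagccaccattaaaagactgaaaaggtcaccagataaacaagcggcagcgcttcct
Gdnf probe 2: ctgatgtctcggtcgtttgtgttatacaac
Artn: atatatacatatatacattgtagtcgcgtt

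Among the ligands, Gdnf and Artn were lower in CSD pups, and they were the 2 members called of the 9 (Benjamini-Hochberg adjusted p under 0.05 in limma). Of all genes, 1.25% were called in either direction, 0.548% as lower and 0.706% as higher in CSD pups. The study's text gives the opposite direction for Gdnf. Gdnf probe 2 was well above background on all 16 arrays, with log2 intensities (background-corrected and quantile normalized between arrays) of 8.08 to 8.66 (median 8.40) in CSD pups and 8.71 to 9.22 (median 8.91) in VD pups. All 8 CSD pups lay below all 8 VD pups at this probe, a separation seen at 0.188% of all probes. The log2 fold change was -0.49 (SE 0.09, 95% confidence interval -0.67 to -0.30), or 1.40-fold lower in CSD pups, with an adjusted p of 0.0130 in limma over all probes, of which 1.74% were called. A two-sided exact permutation test over the 8 CSD and 8 VD pups, blind to litter and sex, gave p = 0.000155, the smallest it can give. In bulk tissue, fewer cells that express a gene and less RNA per cell cannot be told apart.

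Both CSD litters had lower means of Gdnf probe 2 than both VD litters. In the litter of CSD mother 3, Gdnf probe 2 read 8.38 and 8.66 in the females and 8.58 and 8.58 in the males. In the litter of CSD mother 4 it read 8.38 and 8.08 in the females and 8.21 and 8.41 in the males. The litter means were 8.55 ± 0.12 for mother 3 and 8.27 ± 0.16 for mother 4 (SD, n = 4 each), so that the CSD litters differed by 0.28 on the log2 scale at this probe, which was not called (adjusted p = 0.43 in limma). In the VD litter of mother 5 the females read 8.92 and 8.71 and the males 9.08, 9.22 and 8.90, with a mean of 8.96 ± 0.19 (SD, n = 5). The 3 males of VD mother 6 read 8.83, 8.94 and 8.82, with a mean of 8.86 ± 0.07 (SD, n = 3). The highest CSD pup (8.66, a female of mother 3) and the lowest VD pup (8.71, a female of mother 5) were the closest pair across the groups, which did not overlap.

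Gdnf probe 1 was not well above background on any of the 16 arrays, and its values lay between 5.93 and 6.16 in all pups. No difference is given for it. The gene value of Gdnf is the mean of both probes. It stood at 7.22 ± 0.11 in CSD and 7.48 ± 0.08 in VD pups (SD, n = 8 each). Its log2 fold change was -0.25 (SE 0.05, adjusted p = 0.0306 in limma), a smaller difference than at probe 2 alone. In the gene matrix deposited by the authors, Gdnf followed probe 2 (r = 0.997 over the 16 pups) and not probe 1 (r = 0.04). Its level in that matrix was 8.18 ± 0.22 in CSD and 8.76 ± 0.18 in VD pups, and all 8 CSD pups again lay below all 8 VD pups.

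**Figure D1:**
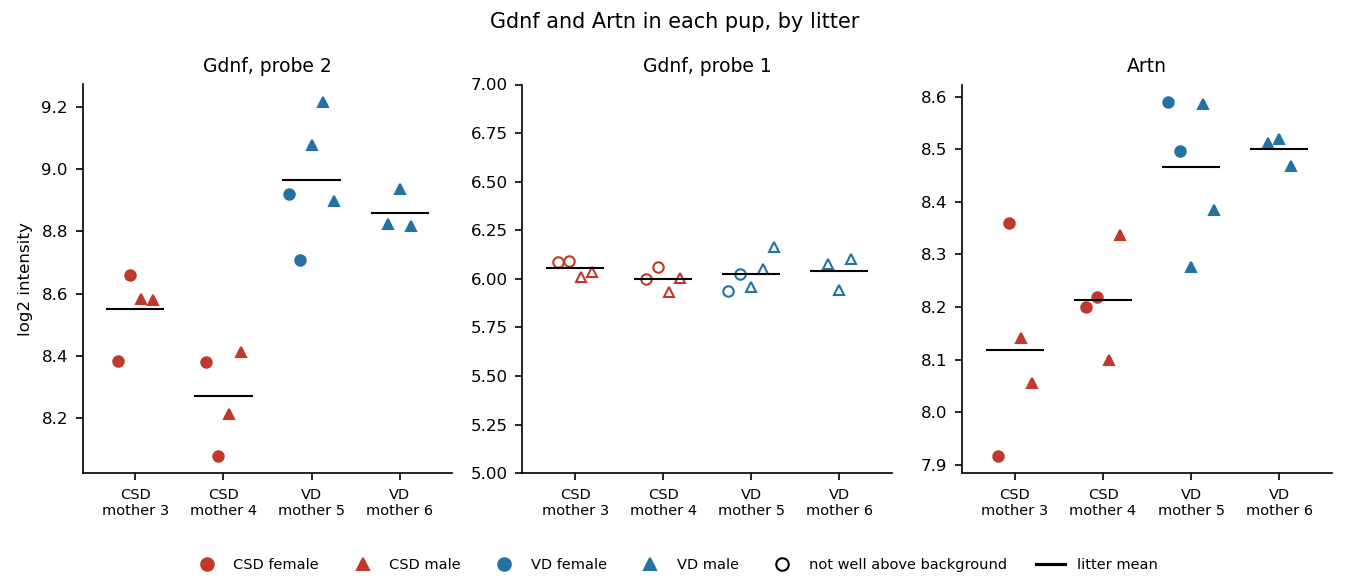
Log2 intensity (y axis) of Gdnf probe 2, Gdnf probe 1 and Artn in each pup, by litter (x axis), with CSD litters in red, VD litters in blue, females as circles, males as triangles, open symbols for spots not well above background and lines at the litter means. At Gdnf probe 2 the CSD pups lie between 8.08 and 8.66 and the VD pups between 8.71 and 9.22, while probe 1 stays between 5.93 and 6.16 with open symbols only.

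Artn, the ligand of GFRalpha3, was well above background on all 16 arrays. Its log2 intensities were 7.92 to 8.36 (median 8.17) in CSD and 8.28 to 8.59 (median 8.50) in VD pups. A single VD pup, a male of mother 5 at 8.28, lay within the range of the CSD pups, and 6 of the 8 CSD pups lay below all VD pups. The log2 fold change was -0.32 (SE 0.07, interval -0.46 to -0.18), or 1.25-fold lower in CSD pups, with an adjusted p of 0.0298 in limma over all genes and an exact permutation p of 0.000622. The litter means were 8.12 ± 0.19 and 8.21 ± 0.10 for CSD mothers 3 and 4 (SD, n = 4 each), 8.47 ± 0.14 for VD mother 5 (SD, n = 5) and 8.50 ± 0.03 for VD mother 6 (SD, n = 3). The litters within a delivery mode lay closer to each other than to those of the other mode.

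Neither call held when the 4 litter means were taken as the samples, with adjusted p of 0.36 for Gdnf, 0.26 for its probe 2 and 0.26 for Artn in limma. At that level no gene of the whole array was called. Without the litter of mother 4 the log2 fold change of Gdnf was -0.16 and that of its probe 2 was -0.35, and neither was called (adjusted p = 0.18 and 0.10). Without the litter of mother 5, Gdnf was at -0.23 (0.25), its probe 2 at -0.41 (0.19) and Artn at -0.34 (0.16), the numbers in brackets being adjusted p in limma. Artn was also not called without the litter of mother 3 (-0.28, adjusted p = 0.07) or mother 4 (-0.38, adjusted p = 0.08).

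Single pups moved the values less. Gdnf fell just short of the call without CSD pup 6 (-0.21, adjusted p = 0.0544), CSD pup 7 (-0.24, adjusted p = 0.0684), CSD pup 9 (-0.26, adjusted p = 0.0504) or VD pup 4 (-0.25, adjusted p = 0.0717) in limma. Artn did so without CSD pup 6 (-0.32, adjusted p = 0.0572), CSD pup 9 (-0.31, adjusted p = 0.0649), VD pup 4 (-0.31, adjusted p = 0.0879) or VD pup 5 (-0.33, adjusted p = 0.0551). Gdnf probe 2 remained called with each of the 16 pups left out, at -0.52 to -0.44. Within slide 1 the log2 fold changes were -0.23 for Gdnf, -0.49 for its probe 2 and -0.30 for Artn, and within slide 2 they were -0.26, -0.49 and -0.35, with none called at 4 against 4 pups.

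Nrtn and Pspn, the other two ligands, were not called. Nrtn was well above background on all 16 arrays at both of its probes, which lie on the minus strand of chromosome 17 (NM_008738). As a gene it was at 10.08 ± 0.12 in CSD and 10.17 ± 0.11 in VD pups (SD, n = 8 each), a log2 fold change of -0.08 (SE 0.06, interval -0.21 to 0.05, adjusted p = 0.60 in limma). The groups overlapped at both probes, at 11.05 to 11.55 against 11.23 to 11.52 for probe 1 and 8.51 to 9.44 against 8.77 to 9.32 for probe 2. Pspn (NM_008954, also chromosome 17, minus strand) was not well above background on any array, with values of 5.91 to 6.19 in CSD and 5.92 to 6.44 in VD pups, and no difference is given for it. The deposited matrix lists 8 of the 9 members, and Pspn is the member outside it.

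**Figure D2:**
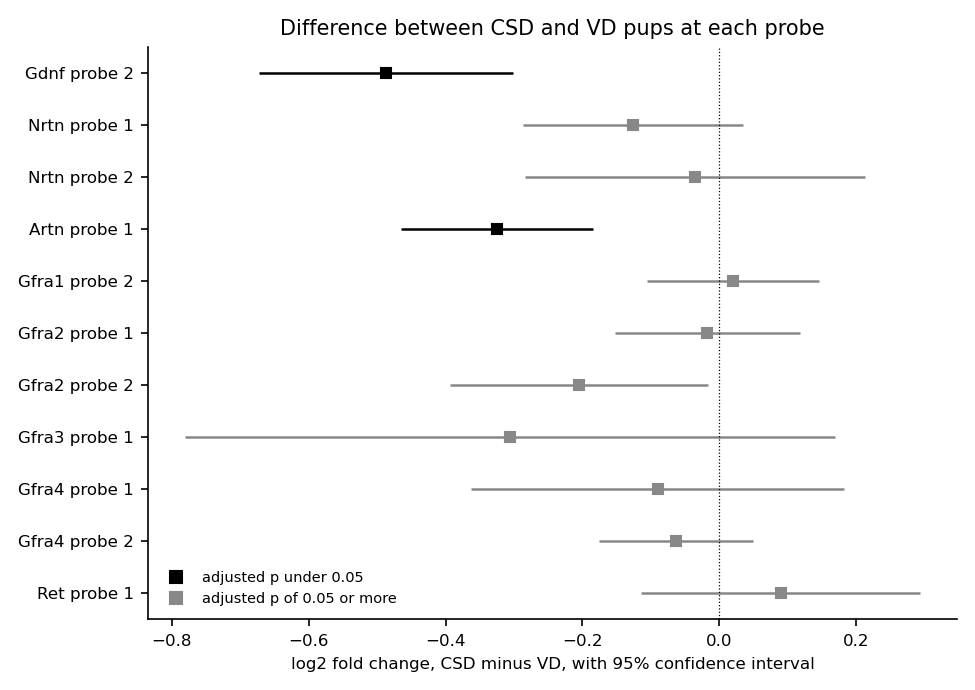
Log2 fold change between CSD and VD pups (x axis, CSD minus VD, with the 95% confidence interval) at the 11 probes of the family that were well above background on at least 1 array (y axis), in black where the adjusted p over all probes was under 0.05 and in grey otherwise. Gdnf probe 2 (-0.49) and Artn (-0.32) are the 2 probes called.

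The co-receptors of the 2 ligands called were not called themselves. Gfra1, the co-receptor of GDNF, gave dim signals from both probes (NM_010279, chromosome 19, minus strand). Its probe 1 was not well above background on any array, and its probe 2 was on all 8 CSD and 6 VD arrays. At probe 2 the values were 6.51 to 6.81 (median 6.65) in CSD and 6.36 to 6.78 (median 6.65) in VD pups, and the 2 lowest values were those of the VD pups not well above background, pup 11 of mother 5 and pup 6 of mother 6. The log2 fold change at this probe was 0.02 (SE 0.06, interval -0.10 to 0.15, adjusted p = 0.91 in limma).

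Gfra3, the co-receptor of artemin (NM_010280, chromosome 18, minus strand), was the member that varied most between litters of a single delivery mode. It was well above background on all 16 arrays, with 9.08 to 10.60 (median 9.70) in CSD and 9.52 to 10.47 (median 10.25) in VD pups. The pups of CSD mother 3 read 9.55, 9.13, 9.08 and 9.44, and those of CSD mother 4 read 10.31, 9.86, 10.60 and 10.19. All pups of mother 3 thus lay below all pups of mother 4, with a log2 difference of -0.94 (SE 0.20, unadjusted p = 0.000393 and adjusted p = 0.116 in limma). The VD litters read 9.52, 10.47, 9.92, 10.30 and 10.33 (mother 5) and 10.26, 9.83 and 10.24 (mother 6), with 10.11 as the mean of each. Between the delivery modes the log2 fold change was -0.31 (SE 0.23, interval -0.79 to 0.17, adjusted p = 0.59), and it became 0.18 when the pups of mother 3 were left out and -0.79 when those of mother 4 were, neither being called.

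Gfra2, the co-receptor of neurturin (NM_008115, chromosome 14, plus strand), was well above background on all 16 arrays at its probe 2 and on 2 VD arrays at its probe 1. At probe 2 the values were 10.09 to 10.59 (median 10.30) in CSD and 10.19 to 10.78 (median 10.61) in VD pups, and 3 CSD pups lay below all VD pups. The log2 fold change at this probe was -0.20 (SE 0.09, interval -0.39 to -0.02), which did not pass the adjustment over all probes (unadjusted p = 0.0355, adjusted p = 0.28 in limma, with 15.1% of all probes at an unadjusted p under 0.05). As a gene, Gfra2 was at -0.11 (SE 0.06, adjusted p = 0.40), and of the 38 alternatives tried it was called only without the litter of mother 6 (-0.18, adjusted p = 0.0112), where 2265 genes of the array were called in place of 460. Within the VD litters it was 0.22 higher for mother 5 than for mother 6 on the log2 scale (adjusted p = 0.16).

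Gfra4, the co-receptor of persephin, was well above background on all 16 arrays at both probes (chromosome 2, minus strand, NM_020014 for probe 1 and NM_001271002 for probe 2). Probe 1 read 9.64 to 10.18 (median 9.98) in CSD and 9.59 to 10.47 (median 9.97) in VD pups, and probe 2 read 14.46 to 14.78 (median 14.64) in CSD and 14.55 to 14.80 (median 14.70) in VD pups. The groups overlapped at both probes, with log2 fold changes of -0.09 (SE 0.13) and -0.06 (SE 0.05) and adjusted p of 0.81 and 0.64 in limma.

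Ret itself (NM_001080780, chromosome 6, minus strand, 1 probe) was well above background on all 16 arrays and overlapped between the groups. It read 8.31 to 9.02 (median 8.75) in CSD and 8.46 to 8.88 (median 8.62) in VD pups, with 1 CSD pup below and 2 CSD pups above all VD pups. The log2 fold change was 0.09 (SE 0.10, interval -0.12 to 0.30, adjusted p = 0.74 in limma). The interval runs from 0.12 lower to 0.30 higher in CSD pups on the log2 scale. It is taken over pups and mostly measures the spread within litters. With 2 litters of each mode it does not bound the difference between delivery modes.

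**Figure D3:**
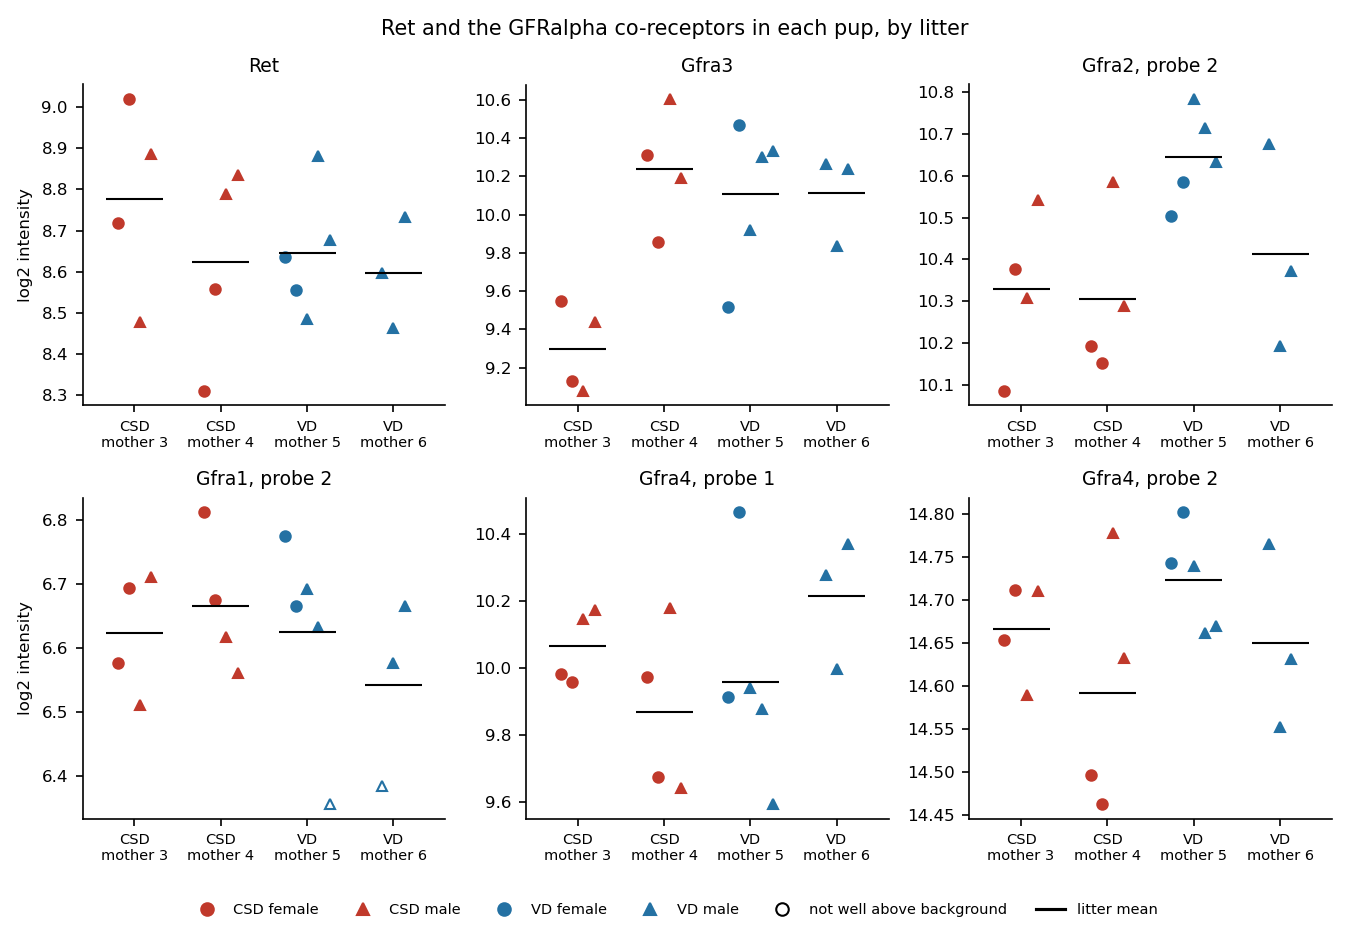
Log2 intensity (y axis) of Ret, Gfra3, Gfra2 probe 2, Gfra1 probe 2 and both Gfra4 probes in each pup, by litter (x axis), with colours, symbols and lines for group, sex, background and litter mean as in the plot of the ligands and a y axis of its own in each panel. The litter of CSD mother 3 has the lowest mean for Gfra3 (pups at 9.08 to 9.55), with 9.52 as the lowest VD pup. The groups overlap in every panel.

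Across the 9 members, the fitted log2 fold change was below 0 for 7 and above 0 for 2. These include Pspn, not well above background on any array, and Gfra1, whose gene value averages in its background probe and whose group means were 6.48 in both groups. With only probes well above background on all arrays of at least 1 group, 6 of 8 members lay below 0. Over all 9 the median log2 fold change was -0.08, beside 0.0029 for the whole array, where 51.7% of genes were higher. Gdnf, Nrtn, Artn and Gfra2 had both CSD litter means below both VD litter means. Litter means separated in this way, in either direction, at 42% of all genes. No member was called between the sexes (0 of 9 in limma, 1 of 9 at an unadjusted p under 0.05, Gfra1, beside 6.45% of all genes), and 0.0599% of all genes were called. For Gdnf the log2 difference between females and males was -0.05 (SE 0.05), and for Artn it was 0.05 (SE 0.07). No member passed the threshold for a difference between delivery modes that depended on sex (0 of 9 called and 0 at an unadjusted p under 0.05 in limma, beside 0.00272% of all genes called and 4.72% at an unadjusted p under 0.05), where the VD group held 2 females, both of mother 5. Between litters of a delivery mode 0 of 9 members were called. At an unadjusted p under 0.05 in limma there were 2 between mothers 3 and 4 (Gdnf and Gfra3, beside 7.68% of all genes) and 1 between mothers 5 and 6 (Gfra2, beside 11.5%), while 0.0872% and 0.874% of all genes were called.

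Other proteins that bind GDNF or Ret were examined as a list of 10 genes, 4 of them higher and 6 lower in CSD pups, and with 0 called and 1 at an unadjusted p under 0.05 (limma), beside 14.5% of all genes. Sdc3, a heparan sulphate proteoglycan that also binds GDNF, was at 10.28 ± 0.14 in CSD and 10.55 ± 0.16 in VD pups (SD, n = 8 each), a log2 fold change of -0.23 (SE 0.06, adjusted p = 0.096 in limma). Ptprf, a receptor tyrosine phosphatase that limits Ret, was at -0.07 (SE 0.04, adjusted p = 0.52). Among 22 adaptors and kinases that act directly below Ret, 13 were higher and 9 lower, with 0 called and 7 at an unadjusted p under 0.05 (limma). Cbl, a ubiquitin ligase recruited to activated receptor kinases, was at 0.14 (SE 0.04, adjusted p = 0.07), and Sos1, which activates Ras, was at 0.14 (SE 0.04, adjusted p = 0.13). The median log2 fold change of this list was 0.02, while its summed log2 intensity was 16.88 ± 0.22 in CSD and 16.48 ± 0.26 in VD pups (SD, n = 8 each). The brightest gene of the list was Pik3ca, a catalytic subunit of phosphoinositide 3-kinase chosen after its values were seen, at 16.08 ± 0.39 in CSD and 15.23 ± 0.62 in VD pups (log2 fold change 0.72, SE 0.23, adjusted p = 0.14 in limma).

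Genes known to respond to GDNF and Ret, mostly from work on the ureteric bud of the kidney, were lower in CSD pups in 9 of 11 cases, the median log2 fold change being -0.06, and 0 of the 11 were called (3 at an unadjusted p under 0.05 in limma). Spry1, a feedback inhibitor of receptor tyrosine kinase signalling, was at 10.63 ± 0.07 in CSD and 10.82 ± 0.10 in VD pups (SD, n = 8 each), a log2 fold change of -0.18 (SE 0.05, adjusted p = 0.09 in limma). Cxcr4, a chemokine receptor, was at -0.36 (SE 0.11, adjusted p = 0.12). Egr1, an immediate early gene chosen after its values were seen, was at -0.98 (SE 0.30, adjusted p = 0.12). These genes also respond to other growth factors.

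Factors that act with Ret in the neural crest, including the endothelin-3 pathway, were higher in 6 and lower in 5 of 11 cases, with 0 called and 0 at an unadjusted p under 0.05 (limma). Sox10, a transcription factor of neural crest and enteric glia, was at -0.16 (SE 0.08, adjusted p = 0.38), and Ednrb, the endothelin receptor of neural crest cells, was at 0.09 (SE 0.05, adjusted p = 0.39). The neurotrophins and their receptors, the other main family of neurotrophic factors, were higher in 4 and lower in 5 of 9 cases, with 0 called and 1 at an unadjusted p under 0.05. Ntf3, which encodes neurotrophin-3, was at 8.34 ± 0.15 in CSD and 8.60 ± 0.13 in VD pups (SD, n = 8 each), a log2 fold change of -0.27 (SE 0.07, adjusted p = 0.08 in limma).

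**Figure D4:**
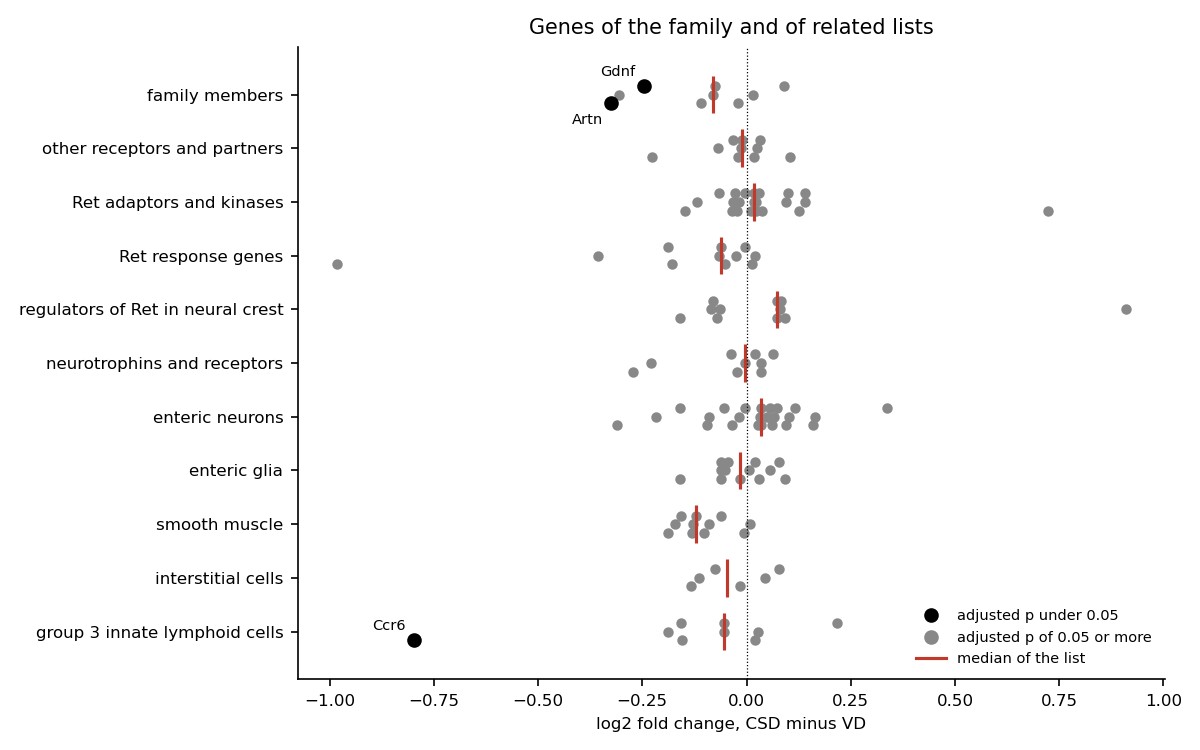
Log2 fold change between CSD and VD pups (x axis, CSD minus VD) of each gene of the family and of 10 related lists (y axis), with genes at an adjusted p under 0.05 in black and named, other genes in grey and the median of each list as a red line. Gdnf, Artn and Ccr6 are the genes called, all lower in CSD pups.

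Markers of the cells that make or receive these ligands were set beside Gdnf and Artn. Enteric neuron genes were higher in 15 and lower in 9 of 24 cases (median 0.03), with 0 called and 1 at an unadjusted p under 0.05 (limma). Their summed log2 intensity was 13.60 ± 0.23 in CSD and 13.62 ± 0.12 in VD pups (SD, n = 8 each), with Vip as the brightest gene. Syp, which encodes the synaptic vesicle protein synaptophysin, was at -0.16 (SE 0.04, adjusted p = 0.09), and Nos1, the neuronal nitric oxide synthase of inhibitory neurons, was at 0.10 (SE 0.05, adjusted p = 0.42). Enteric glial genes were higher in 6 and lower in 7 of 13 cases (median -0.02, 0 called and 0 at an unadjusted p under 0.05 in limma), with summed values of 12.77 ± 0.13 and 12.78 ± 0.08. Besides Sox10, Erbb3, the neuregulin receptor of glia, was at 0.09 (SE 0.07, adjusted p = 0.58). Interstitial cell genes were higher in 2 and lower in 4 of 6 cases (median -0.05, 0 called and 0 at an unadjusted p under 0.05 in limma), with summed values of 15.20 ± 0.11 and 15.15 ± 0.10, and Kcnn3 and P2ry1, a potassium channel and a purine receptor of PDGFRalpha cells, were at -0.13 (SE 0.08) and -0.11 (SE 0.07).

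Smooth muscle genes were lower in CSD pups in 10 of 11 cases (median log2 fold change -0.12), with 0 called and 1 at an unadjusted p under 0.05 (limma). All 11 were well above background on all 16 arrays. Their summed log2 intensity was 17.91 ± 0.20 (17.64 to 18.25) in CSD and 18.06 ± 0.17 (17.87 to 18.31) in VD pups, with Tagln as the brightest gene. Smtn, smoothelin of contractile muscle, was at -0.19 (SE 0.08, adjusted p = 0.27), and Acta2, smooth muscle actin, at -0.17 (SE 0.09, adjusted p = 0.42). The 6 genes of other leucocytes and fat were lower in all 6 cases (median -0.25, 0 called and 2 at an unadjusted p under 0.05 in limma), with summed values of 11.35 ± 0.55 and 11.75 ± 0.44 and Adipoq as the brightest gene. Cd68 of macrophages was at -0.26 (SE 0.09, adjusted p = 0.18).

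The list for group 3 innate lymphoid cells was lower in 6 and higher in 3 of 9 cases (median -0.05), with 1 gene called and 2 at an unadjusted p under 0.05 (limma). Ccr6, a chemokine receptor that B cells carry as well, was at 10.10 ± 0.30 in CSD and 10.90 ± 0.42 in VD pups (SD, n = 8 each), a log2 fold change of -0.80 (SE 0.18, adjusted p = 0.0465). It was the brightest gene of the list, whose summed values were 11.67 ± 0.16 (11.43 to 11.92) and 12.02 ± 0.21 (11.59 to 12.22). Il23r was not well above background on any array, and Il22 was on 9 of 16. Colon epithelial genes were higher in 9 and lower in 2 of 11 cases (median 0.17, 0 called and 2 at an unadjusted p under 0.05 in limma), with summed values of 19.43 ± 0.16 and 19.41 ± 0.12 and Krt8 as the brightest gene. Slc26a3, a chloride exchanger of colonocytes, was at 0.45 (SE 0.13, adjusted p = 0.11), and Epcam, the epithelial adhesion molecule, at 0.17 (SE 0.07, adjusted p = 0.26). Of the 5 small intestinal genes 2 were higher and 3 lower, and only Fabp2, a fatty acid binding protein, was well above background on all 16 arrays, at 0.63 (SE 0.24, adjusted p = 0.21). It was the brightest of the 5, whose summed values were 12.03 ± 0.48 (11.51 to 13.01) in CSD and 11.39 ± 0.40 (10.93 to 11.94) in VD pups. The part of these markers in the values of Gdnf and Artn was not tested.

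The genes whose levels followed Gdnf probe 2 most closely over the 16 pups, among 20528 genes, were Ankrd50, an endosomal sorting protein (Pearson r = 0.935), Il17rb, a receptor subunit for interleukin-25 (0.908), Rrp1, a ribosomal RNA processing factor (0.880), Mtss1l, an actin and membrane binding protein (0.871), and Mex3b, an RNA-binding protein (0.863). Part of such an r comes from the difference between the groups and from the arrays and litters that the genes share. For Ankrd50 it was 0.838 within the 8 CSD and 0.982 within the 8 VD pups, and for Rrp1, the only gene of the 5 that was called, 0.736 and 0.441. For Ret the closest were Ppp2r2c, a regulatory subunit of protein phosphatase 2A (0.892), Kif5a, a kinesin of axonal transport (0.845), Tlx2, a homeobox gene of enteric neural crest (0.843), Wasf1, an actin regulator (0.840), and Nsg1, an endosomal protein of neurons (0.834). None of these 5 was called between CSD and VD pups.

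**Figure D5:**
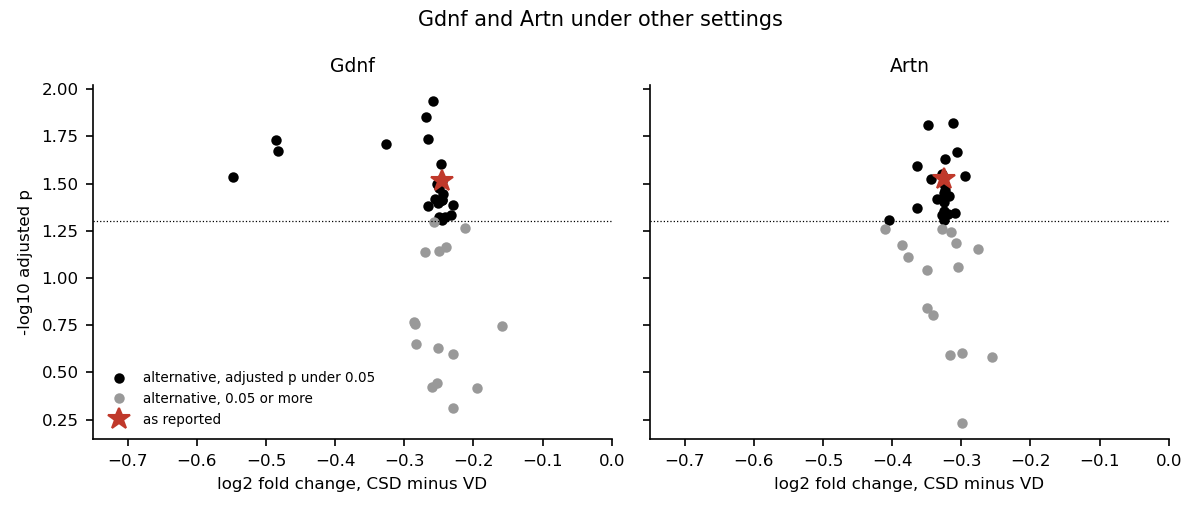
Adjusted p in limma (y axis, as -log10) against the log2 fold change between CSD and VD pups (x axis) for Gdnf and Artn under the settings tried, with the value reported here as a red star, other settings in black where the adjusted p was under 0.05 and in grey otherwise, and the threshold as a dotted line. All points lie below 0 on the x axis, and 23 of 38 alternatives kept the call for each gene.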

How the data were processed

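Colon RNA of 16 pups was measured on 1-colour Agilent arrays. Delivery mode, mother and sex came from the labels, and pup numbers are those of the titles. The authors deposited the scanner output of Feature Extraction, with a mean, a background and a scanner-corrected intensity per spot, beside marks for outliers, saturation and spots well above background. A matrix of 27036 genes in log2 units was deposited too, made by the authors with limma 3.38 per the labels (correction, log2, quantile normalization, filter, averaging by gene). The kind of background correction is not given in the sources used here.

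From the scanner output, the 62976 spots of each array were background-corrected by normexp (offset 50). Control spots were left out, outlier spots were set as missing array by array, and the 59305 spots were quantile normalized. A probe was kept where at least 4 arrays read it above their 5% quantile (56366 of 56605), and probes were averaged by gene name. A log2 intensity is this value, and levels of different probes cannot be compared. limma 3.58.1 in R 4.3.3 fitted fixed effects of delivery mode and sex, with mother as the random effect (duplicateCorrelation, consensus 0.0152). Calls were Benjamini-Hochberg adjusted p under 0.05 over all genes, or over all probes for single probes. Interactions with sex used the same model with the product term, and litters within a delivery mode were compared in a model with the 4 mothers and sex. Exact permutation tests used all 12870 assignments of 8 pups out of 16. Summed intensities of a list are the log2 of the summed gene values. Since delivery mode varied only between litters, p-values over pups mostly measure the spread within litters.

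The members and lists were chosen with earlier results of these data known. The text names every member, from each list the genes called (or, with none called, the 2 of smallest p), and the 5 genes most correlated with Gdnf probe 2 and with Ret. Egr1, Pik3ca and the genes named under other observations were chosen after their values were seen. Where the 2 smallest p of a list included a gene not well above background on any array, that gene was left without a value, and some genes that this rule takes are not reported here. The alternatives were other background corrections and normalizations, other filters and probe summaries, the deposited matrix, other models, subsets of pups, and leaving out each pup or litter, and those for Artn were added after it was called. Figures were made with matplotlib 3.10.9.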

Additional observations from a re-analysis of the deposited data

Results flagged for a closer look

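Among 60 groups of 8 pups examined for a value far from the others, 3 were found, and chance gives about 1 in 20 groups. All 3 were summed log2 intensities of related lists in a CSD pup, and 0 concerned a member of the GDNF family.

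The summed intensity of the Ret response genes was 13.70 in CSD pup 8, above the next CSD pup at 13.47. That of the neural crest regulators was 12.29 in CSD pup 9, above the next CSD pup at 11.25. In that pup Edn3, which encodes endothelin-3, was at 11.45 on the log2 scale, against 6.04 to 6.78 in the other 15 pups. Edn3 has 1 probe, which was well above background on 2 arrays. The summed intensity of the small intestinal genes was 13.01 in CSD pup 2, above the next CSD pup at 12.20.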

How the results depend on the processing

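Gdnf, its probe 2 and Artn stayed lower in CSD pups under every alternative run for them, and their calls did not. Gdnf was called in 23 of 38 alternatives, Artn in 23 of 38 and Gdnf probe 2 in 29 of 36. Log2 fold changes that were no longer called follow, in the order Gdnf, Gdnf probe 2 and Artn: -0.25, -0.50 and -0.32 with litter means as samples, -0.28, -0.52 and -0.30 in males only, -0.23, -0.49 and -0.30 on slide 1 only, and -0.26, -0.49 and -0.35 on slide 2 only. These settings left 0 members called and had fewer samples. With offset 0 in normexp, Gdnf was at -0.28 and Artn at -0.39, and with scanner-corrected intensities minus the 75th percentile they were at -0.25 and -0.41, again with 0 members called. Gdnf alone lost its call with offset 16 (-0.27) and with quantile normalized scanner-corrected intensities (-0.29), and Artn alone in the deposited matrix (-0.35), each leaving 1 member called. Gdnf probe 2 stayed called with offset 0 (-0.56, adjusted p = 0.0311 in limma) and with offset 16 (-0.53, adjusted p = 0.018 in limma). With scanner-corrected intensities it also stayed called. It was at -0.57 quantile normalized (adjusted p = 0.0307) and at -0.58 minus the 75th percentile (adjusted p = 0.030, both in limma). The cause of the lost calls was not tested. Leaving out a pup or a litter gave -0.33 to -0.16 for Gdnf, -0.63 to -0.35 for Gdnf probe 2 and -0.38 to -0.28 for Artn, with 0 to 3 members called. Counts for sex, interaction and litters stayed at 0 in the alternatives run.

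Over all genes the calls numbered 460, against 102 with offset 0, 243 with offset 16, 177 and 164 with scanner-corrected intensities (quantile normalized and minus the 75th percentile), 170 in the deposited matrix and 992 without sex in the model. They numbered 0 for litter means, males only and slide 2, and 11 on slide 1.

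The groups share the numbers 5 to 9 in the pups' titles. With the number as a replicate block (5 against 5 pups, same sex in each pair) the log2 fold changes were -0.19 for Gdnf, -0.38 for its probe 2 and -0.26 for Artn, with 0 members and 0 genes called. The deviations of same-numbered pups from their group means had correlations of -0.05 to 0.22. Differently numbered pups were not compared in this way, so these correlations cannot tell whether the numbers pair pups.

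Precision is limited by 4 litters. Ret was higher in CSD pups in all 38 alternatives and called in 0. Gfra3 changed sign in 1 of 38, Gfra2 in 1, Gfra4 in 2 and Gfra1 in 7, and Nrtn in 0, none of them called with the changed sign.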

Other observations

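CSD pup 6, a male of mother 4, had the highest Gfra3 of all pups (10.60 on the log2 scale, next 10.47) and also the highest levels of genes of noradrenergic sympathetic neurons, the neurons that carry GFRalpha3 and respond to artemin. Th, tyrosine hydroxylase of catecholamine synthesis, was at 8.75, against 7.50 in the next pup, VD pup 6. Dbh, dopamine beta-hydroxylase, was at 9.76 against 9.03 in VD pup 4. Npy, neuropeptide Y of these neurons, was at 10.42 against 8.93 in VD pup 6. The next highest Gfra3 was in another pup, VD pup 5. Gfra3 was at 10.26 in VD pup 6 and at 9.52, the lowest VD value, in VD pup 4. Th, Dbh and Npy were looked at after the value of CSD pup 6 was seen, and no test was made.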
